A study of Mus musculus with 8 samples.

Results

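The 7 genes described here separate the capillary beds of the mouse kidney. Gata5, Tbx3 and Nostrin mark the glomerular capillaries, and Plvap, Igfbp3, Npr3 and Gpihbp1 mark capillaries outside the glomerulus. They were chosen by symbol, as known markers, with earlier results of these data known. The choice was among the 17326 genes of the deposited table whose lines hold all 8 counts, zeros included. All 7 were present, and all 7 passed the filter on low counts that left 16477 genes for testing.

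Polyadenylated RNA was sequenced from endothelium and podocytes obtained by fluorescence-activated cell sorting of mouse kidney, and the series' design text calls the endothelium glomerular. The 8 libraries form 4 groups of 2, namely endothelium of EMCN+/+ (wild-type) kidneys, endothelium of EMCN-/- (knockout) kidneys, and podocytes of each of those genotypes. Emcn encodes endomucin, a sialomucin of the endothelial surface coat, and the labels give the knockout as EMCN-/-. Strain, age, sex, the sorting markers and the cells in which the allele was deleted are not given in the sources used here.

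Glomerular capillaries filter plasma. Their endothelium is fenestrated with largely open pores, whereas the fenestrae of peritubular capillaries and of the ascending vasa recta are spanned by diaphragms built from the protein that Plvap encodes. Gata5 and Tbx3 encode transcription factors of the glomerular endothelium, and Nostrin encodes an adaptor that binds endothelial nitric oxide synthase and helps move it from the plasma membrane. Among the other genes, Gpihbp1 encodes the capillary protein that anchors lipoprotein lipase, Igfbp3 a secreted binder of insulin-like growth factors, and Npr3 the receptor that clears natriuretic peptides.

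In these libraries 5 of the 7 genes (Gata5, Tbx3, Nostrin, Igfbp3 and Gpihbp1) were higher in endothelium than in podocytes, Npr3 was lower, and Plvap did not pass the test. Over all 16477 genes tested, 4.26% were called higher and 4.73% lower in wild type, and 4.28% and 6.09% in knockout. In bulk RNA of sorted cells, fewer cells of a type and less RNA per cell cannot be told apart. None of the 7 passed the test between knockout and wild type in either cell type, where 1 gene of all, Emcn, did in each (0.00607%). In endothelium the largest differences between the genotypes were in the non-glomerular genes Igfbp3, Plvap and Gpihbp1, and the spread between libraries was also largest for Plvap. Its 2 knockout libraries (1070.3 and 68.6 CPM) lay on either side of both wild-type ones (368 and 215 CPM), so its direction was not settled.

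Promoter sequences are shown for 4 of the 7 genes, 3 that were higher in endothelium and Npr3, which was higher in podocytes, so that they can be set against each other. RefSeq's promoter table (GRCm38.p6, the assembly also named mm10) matched these 4. Each run is 300 bases, from 250 before to 50 after the annotated start, printed on the gene's own strand, and capitals mark the only motif match. The start that the table uses lies inside the gene's span for Igfbp3, Npr3 and Gata5.
Igfbp3, chr11:7213874-7214173, minus strand: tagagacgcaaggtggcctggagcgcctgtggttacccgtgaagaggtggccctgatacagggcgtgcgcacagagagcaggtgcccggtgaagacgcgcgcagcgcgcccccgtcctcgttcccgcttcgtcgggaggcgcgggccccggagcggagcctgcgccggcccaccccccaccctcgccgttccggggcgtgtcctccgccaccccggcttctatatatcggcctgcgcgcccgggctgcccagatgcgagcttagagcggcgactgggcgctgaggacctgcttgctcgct
Npr3, chr15:11907322-11907621, minus strand: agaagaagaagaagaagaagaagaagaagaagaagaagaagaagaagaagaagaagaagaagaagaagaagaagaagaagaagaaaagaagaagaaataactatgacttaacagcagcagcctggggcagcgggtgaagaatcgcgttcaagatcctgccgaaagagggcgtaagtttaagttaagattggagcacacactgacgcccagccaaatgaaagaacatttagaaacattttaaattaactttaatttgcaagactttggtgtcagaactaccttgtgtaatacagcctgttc
Gata5, chr2:180334630-180334929, minus strand: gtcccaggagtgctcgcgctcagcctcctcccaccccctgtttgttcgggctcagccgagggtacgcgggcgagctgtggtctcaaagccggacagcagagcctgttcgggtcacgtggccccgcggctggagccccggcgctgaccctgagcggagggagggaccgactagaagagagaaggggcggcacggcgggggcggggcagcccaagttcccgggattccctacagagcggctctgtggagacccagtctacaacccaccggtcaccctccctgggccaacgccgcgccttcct
Nostrin, chr2:69135550-69135849, plus strand: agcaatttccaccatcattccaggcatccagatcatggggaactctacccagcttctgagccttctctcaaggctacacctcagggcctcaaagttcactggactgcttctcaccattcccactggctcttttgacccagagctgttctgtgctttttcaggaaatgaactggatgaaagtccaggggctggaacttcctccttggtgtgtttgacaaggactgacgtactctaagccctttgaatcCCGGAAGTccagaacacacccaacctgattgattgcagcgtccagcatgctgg

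The Igfbp3 and Gata5 promoters were rich in G and C (71.7% and 69.7%) and held 37 and 26 CpG dinucleotides, against medians of 52.7% and 7 over 32851 promoters of the same length. The Nostrin promoter had 51.0% G and C with 3 CpG, and that of Npr3 had 39.0% with 6 CpG and opens with a long run of the repeat aag. Both strands were searched for a motif that factors of the Gata5 family bind, AGATAA, which 11.2% of all promoters hold. They were also searched for the T-box motif AGGTGTGA (1.28% of promoters), for the TATA box core TATAAA (13.6%), and for the ETS-type motifs ACNGGAAG (8.15%) and CCGGAAGT (3.89%). The last was added after the sequences were seen, and it shares letters with ACNGGAAG. Only Nostrin held a match, CCGGAAGT at bases 248 to 255 of its window on the plus strand, which spans the annotated start. A match of letters is not a binding site, and the absence of one says only that these letters are not in these windows.

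The genes lie on 5 chromosomes of GRCm38.p6. Gata5 (Entrez 14464) is at chr2:180325088-180335503 on the minus strand and Nostrin (329416) at chr2:69135800-69189330 on the plus strand. Npr3 (18162) is at chr15:11839896-11907837 on the minus strand and Gpihbp1 (68453) at chr15:75596630-75598213 on the plus strand. Tbx3 (21386) is at chr5:119670534-119684724 on the plus strand, Igfbp3 (16009) at chr11:7206086-7215498 on the minus strand, and Plvap (84094) at chr8:71497753-71511806 on the minus strand. Gata5, Tbx3 and Nostrin each overlap a noncoding or predicted gene in RefSeq (Gata5os, Tbx3os1 and Gm52516), Npr3 overlaps Gm5144, and Plvap overlaps Gtpbp3 and Gm46041. The use of strand in counting is not given in the sources used here, so reads from such neighbours could not be told apart from those of the genes. Igfbp3 and Gpihbp1 overlap no annotated gene.

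The libraries held between 10478956 and 17386042 counts on complete lines, with 16706 to 17272 genes detected. Emcn, the targeted gene, had 173 and 179 CPM (counts relative to the library size, scaled by edgeR's TMM method so that totals are comparable) in knockout endothelium against 1972 and 1828 in wild type, with a log2 fold change of -3.43 (SE 0.35, edgeR adjusted p = 0.0205). Of 14 pan-endothelial genes, 13 were higher in wild-type endothelium than in wild-type podocytes and 1, Cldn5, was lower, and 8 of 8 podocyte genes were lower in endothelium, where 4.26% of all genes were called higher and 4.73% lower. The summed level of the podocyte genes was 1687 to 3122 CPM in endothelium libraries against 10458 to 21201 CPM in podocyte libraries, and that of the pan-endothelial genes was 7341 to 9519 CPM in endothelium against 598 to 892 CPM in podocytes. The labels do not say whether the 2 libraries of a group came from separate animals, so p-values measure the spread between these samples, which may be technical.

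Gata5 was measured at 211 and 165 CPM in wild-type endothelium (replicates 2 and 3) and at 205 and 171 CPM in knockout endothelium. In podocytes it was at 7.65 and 3.48 CPM in wild type and at 7.83 and 3.98 CPM in knockout. All 4 endothelium libraries lay far above all 4 podocyte libraries, and the genotypes overlapped within each cell type. Gata5 was higher in wild-type endothelium than in wild-type podocytes by 5.07 on the log2 scale (SE 0.44, edgeR adjusted p = 7.73e-05). In knockout the difference was 4.98 (SE 0.44, edgeR adjusted p = 8.43e-05).

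Tbx3, a T-box factor, was at 355 and 270.0 CPM in wild-type endothelium and at 325 and 253 CPM in knockout endothelium. Its podocyte levels were 34.7 and 38.1 CPM in wild type and 40.4 and 24.0 CPM in knockout. Every endothelium library was above every podocyte library, and the genotypes overlapped in both cell types. The difference between cell types was 3.10 (SE 0.31, edgeR adjusted p = 0.00014) in wild type. It was 3.16 (SE 0.31, edgeR adjusted p = 0.000138) in knockout.

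Nostrin, the adaptor of the nitric oxide synthase, was at 124 and 149 CPM in wild-type endothelium and at 159 and 158 CPM in knockout endothelium. In podocytes it was at 15.7 and 16.8 CPM in wild type and at 14.3 and 13.0 CPM in knockout. Its replicates were close, and both knockout libraries lay just above both wild-type libraries in endothelium and just below them in podocytes. Nostrin was higher in endothelium by 3.07 in wild type (SE 0.22, edgeR adjusted p = 4.32e-05). The knockout value was 3.54 (SE 0.23, edgeR adjusted p = 2.47e-05), the smallest p among the 7 genes.

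Gpihbp1, which holds lipoprotein lipase on the capillary wall, was at 143 and 131 CPM in wild-type endothelium and at 280.5 and 183 CPM in knockout endothelium. Podocytes had 5.44 and 1.74 CPM in wild type and 2.61 and 5.53 CPM in knockout. The 2 knockout endothelium libraries were above both wild-type ones, and the podocyte libraries were all near the bottom of the range. Gpihbp1 had the largest difference between cell types of the 7 genes, at 5.23 in wild type (SE 0.53, edgeR adjusted p = 0.000154). In knockout it was 5.84 (SE 0.54, edgeR adjusted p = 0.000117).

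Igfbp3, the growth factor binder, was at 17.4 and 17.3 CPM in wild-type endothelium and at 48.3 and 23.5 CPM in knockout endothelium. Podocytes had 2.27 and 0.944 CPM in wild type and 2.73 and 1.33 CPM in knockout, which rest on 13 to 44 counts a library. Both knockout endothelium libraries were above both wild-type ones, with replicate 2 well above replicate 3. The difference between cell types was 3.42 in wild type (SE 0.54, edgeR adjusted p = 0.00213). In knockout it was 4.13 (SE 0.54, edgeR adjusted p = 0.000797).

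Npr3, the natriuretic peptide clearance receptor, ran the other way. It was at 67.7 and 34.1 CPM in wild-type endothelium and at 50.9 and 58.6 CPM in knockout endothelium, against 565 and 435 CPM in wild-type podocytes and 295 and 439.7 CPM in knockout podocytes. Every podocyte library was above every endothelium library. Npr3 was lower in wild-type endothelium by a log2 fold change of -3.30 (SE 0.36, edgeR adjusted p = 0.000245) and in knockout endothelium by one of -2.75 (SE 0.36, edgeR adjusted p = 0.000734). These libraries therefore do not show Npr3 as a gene of endothelium over podocytes.

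Plvap, the diaphragm protein, was at 368 and 215 CPM in wild-type endothelium and at 1070.3 and 68.6 CPM in knockout endothelium. It was at 128 and 102 CPM in wild-type podocytes and at 104 and 43.9 CPM in knockout podocytes. Knockout endothelium held both the highest and the lowest of the 4 endothelium values, and its replicate 3 lay within the range of the podocyte libraries. The difference between cell types in wild type was 1.34 (SE 0.88, 95% interval -0.60 to 3.29, edgeR adjusted p = 0.479). In knockout it was 2.95 (SE 0.93, 95% interval 0.89 to 5.0, edgeR adjusted p = 0.074), and without knockout endothelium replicate 3 it was 3.85 (edgeR adjusted p = 0.000565), whereas without replicate 2 it was -0.11. A fit of only the 4 wild-type libraries gave 1.44 and an edgeR adjusted p of 0.00355.

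**Figure D1:**
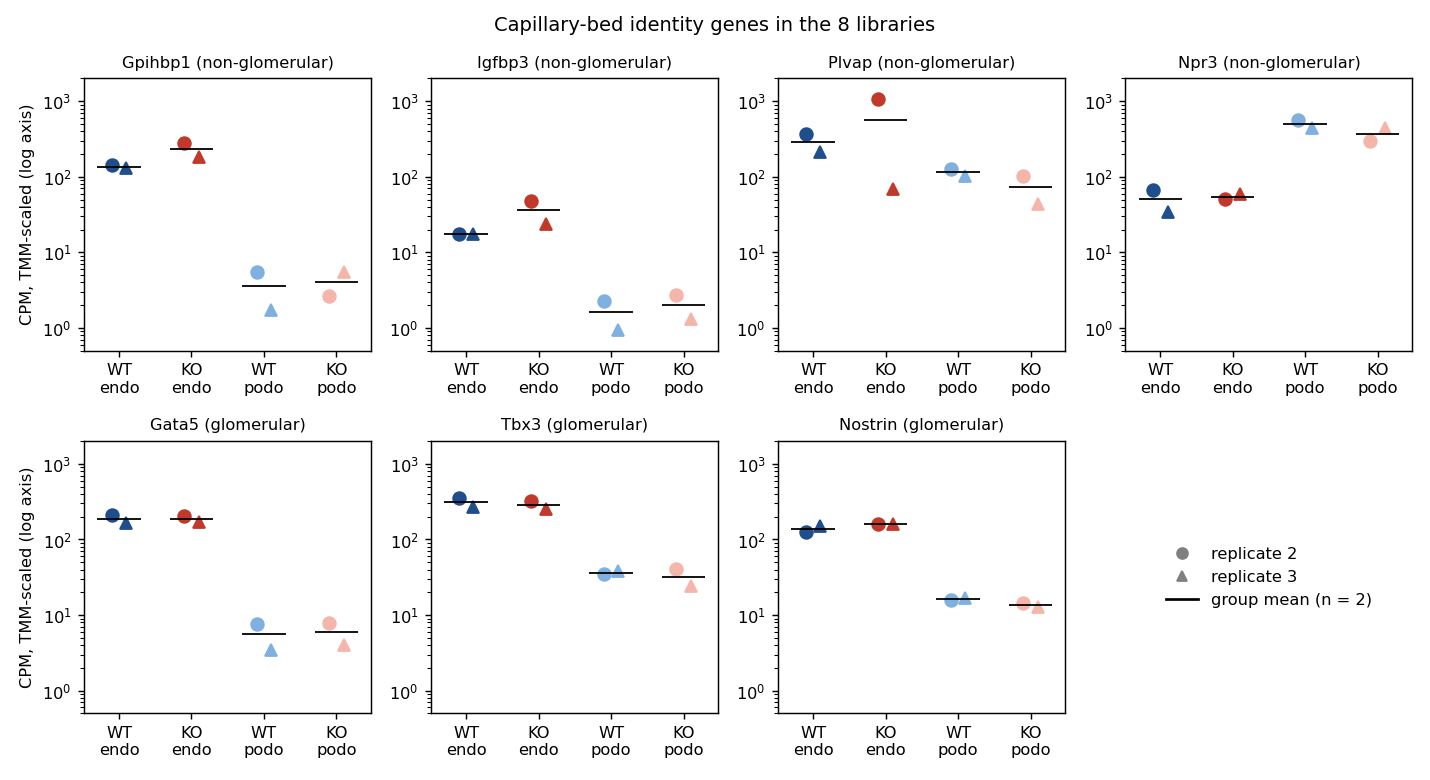
Level of each gene in the 8 libraries in TMM-scaled CPM on a log axis, with points for replicates 2 and 3 and a line at the mean of each group (n = 2). Npr3 is the one gene higher in podocytes, and in the Plvap panel the knockout endothelium libraries are at 1070.3 and 68.6 CPM.

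Between the cell types, then, 5 of the 7 genes were called higher in wild-type endothelium, 1 lower, and 1 was not called, where 8.99% of all 16477 genes were called (4.26% higher and 4.73% lower). In knockout the counts were again 5 higher, 1 lower and 1 not called, against 10.4% of all genes (4.28% higher and 6.09% lower). All 3 glomerular genes were among those called higher, with a median log2 fold change of 3.10 in wild type and 3.54 in knockout. Of the 4 non-glomerular genes, 2 were called higher and 1 lower, with medians of 2.38 and 3.54. The medians over all genes tested were -0.01 in both.

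**Figure D2:**
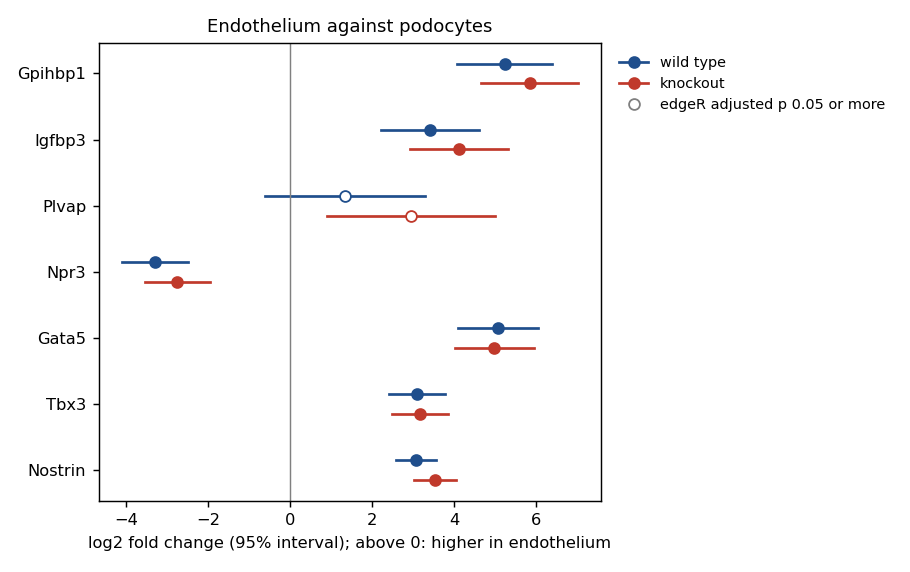
Log2 fold change of endothelium against podocytes with its 95% interval for each gene, in wild type and in knockout, filled where the edgeR adjusted p was under 0.05. Gpihbp1 and Gata5 lie farthest above 0, Npr3 lies below 0, and the Plvap points are open with the widest intervals.

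How far each gene was from absent in podocytes was read as the podocyte level in percent of the endothelium level of the same genotype. In wild type it was 2.63% for Gpihbp1, 2.96% for Gata5, 9.26% for Igfbp3, 11.7% for Tbx3, 11.9% for Nostrin, 39.4% for Plvap and 983% for Npr3. The 13 pan-endothelial genes other than Cldn5 had a median of 5.51% and a range from 1.68% to 16.2%. Of the 7 genes, 5 therefore lay within the range of these 13 genes, and Plvap and Npr3 lay above it. Cldn5, left out of that range, was at 293.6%, and with it included Plvap would lie within the range. In knockout the shares were 1.76% for Gpihbp1, 3.14% for Gata5, 5.66% for Igfbp3, 8.60% for Nostrin, 11.1% for Tbx3, 13.0% for Plvap and 671% for Npr3, against a pan-endothelial median of 4.65% and a range from 1.99% to 19.0%. There the Plvap share was within that range, with the endothelium mean resting on the 1070.3 CPM of replicate 2. The top of the range was Erg, with a podocyte mean of 1.74 CPM, and the next highest share was 9.15% for Esam. Cldn5, again left out, was at 158.3%.

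**Figure D3:**
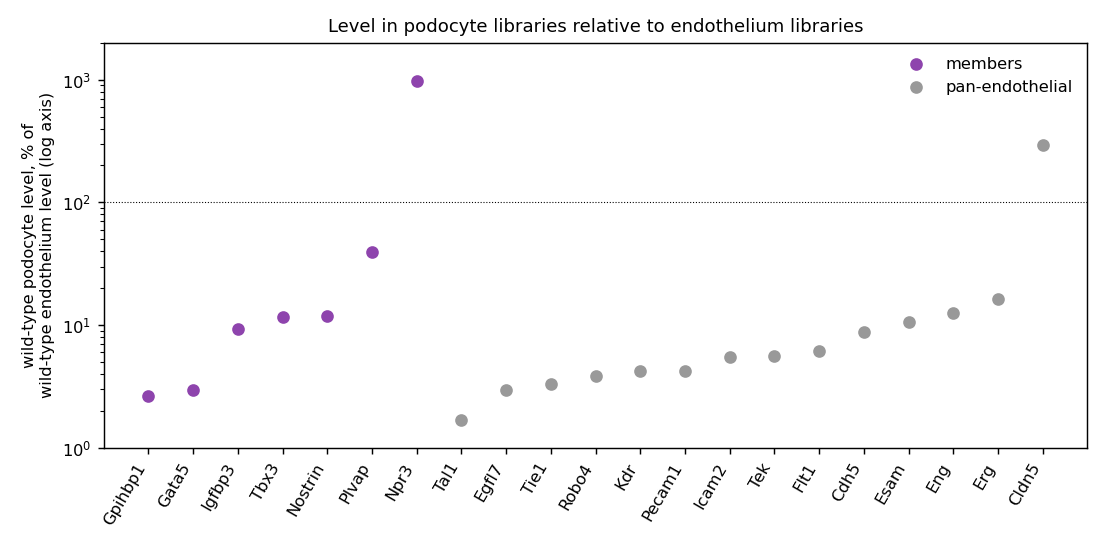
Level in wild-type podocyte libraries as a percentage of the level in wild-type endothelium libraries, on a log axis with a dotted line at 100%, for the 7 genes and the 14 pan-endothelial genes tested. Most genes lie near or below 10%, Plvap is at 39.4%, and Cldn5 and Npr3 are above the line at 293.6% and 983%.

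For Npr3 the reverse share, the endothelium level in percent of the podocyte level, was 10.2% in wild type and 14.9% in knockout. The 8 podocyte genes tested had a median of 10.1% and a range of 7.03% to 26.6% in wild type, with Synpo at 7.03%, Wt1 at 8.26% and Clic5 at 26.6%. In knockout their median was 13.0% and their range 7.33% to 39.6%. The Npr3 level of the endothelium libraries was thus within the range that podocyte genes showed there in both genotypes. The part of podocyte RNA in the Npr3 level of endothelium was not tested.

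Set per kilobase of the longest annotated transcript, the order of the levels in wild-type endothelium was Plvap at 147 ± 54.6 (SD, n = 2) CPM per kb, Gpihbp1 at 82.7 ± 5.10, Nostrin at 75.5 ± 9.96, Tbx3 at 62.7 ± 12.1, Gata5 at 57.4 ± 10.04, Npr3 at 7.38 ± 3.45 and Igfbp3 at 7.17 ± 0.0299. Plvap was above Gpihbp1 in both libraries, and Gpihbp1, Nostrin, Tbx3 and Gata5 followed in a run in which each overlapped the next. Npr3 and Igfbp3 overlapped each other and lay well below the rest. Among other endothelial genes, Ehd3 (825 CPM per kb), Emcn (539.7) and Kdr (251) were above the 7, whereas the means of Fbln5 (121), Lpl (119) and Sox17 (107) were between those of Plvap and Gpihbp1. In replicate 3 Plvap (108) was below Fbln5 (111) and Lpl (126), and Sox17 (77.0) was below Gpihbp1 (79.1). Plvap and Gpihbp1, genes of non-glomerular capillaries, headed the 7 in libraries that the design text calls glomerular. With the union of annotated exons as the length, Gpihbp1 fell to 53.5, Lpl to 46.7, Tbx3 to 47.2 and Igfbp3 to 5.54 CPM per kb, and the order became Plvap, Nostrin, Gata5, Gpihbp1, Tbx3, Igfbp3 and Npr3.

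In knockout endothelium the order per kilobase was Plvap at 287 ± 356 (SD, n = 2), Gpihbp1 at 140.4 ± 41.6, Nostrin at 87.7 ± 0.443, Tbx3 at 58.0 ± 10.2, Gata5 at 57.3 ± 7.47, Igfbp3 at 14.8 ± 7.25 and Npr3 at 7.94 ± 0.787 CPM per kb. Plvap overlapped every neighbour down to Gata5, with its replicate 3 at 34.5, below all of them. Gpihbp1 was above Nostrin and Nostrin above Tbx3 in every library on this length, while Tbx3 and Gata5 overlapped. With the union of annotated exons as the length, the means of Gpihbp1 (90.8) and Nostrin (83.9) were closer, and Gata5 (57.3) was above Tbx3 (43.6). In wild-type podocytes Npr3 came first at 72.6 ± 13.3 and Plvap next at 57.8 ± 9.24, and the others were at 8.97 ± 0.425 or below. The 2 leading genes overlapped, with Plvap replicate 2 at 64.3 and Npr3 replicate 3 at 63.2, and with the union of exons as the length Plvap (57.8) was above Npr3 (53.3).

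Between knockout and wild type in endothelium, the comparison asks whether the levels of the 7 genes differed. Fewer cells of a type and less RNA per cell cannot be told apart here either. None of the 7 genes was called by edgeR, where 1 gene of 16477, Emcn itself, was called (0.00607%). At an unadjusted p under 0.05 there was 1 of the 7, Igfbp3, against 5.49% of all genes (905). DESeq2, which called 4 genes in all (0.0243%), and limma voom, which called 1 (0.00607%), also called none of the 7. The 4 non-glomerular genes had a median log2 fold change of 0.87, with all 4 above 0, and the 3 glomerular genes one of 0.00, against 0.01 over all genes. The direction of Plvap turned under limma voom (-0.04).

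Among the non-glomerular genes, Igfbp3 had a log2 fold change of 1.05 (SE 0.47, 95% interval 0.01 to 2.09, edgeR adjusted p = 0.716). Gpihbp1 had one of 0.76 (SE 0.43, 95% interval -0.19 to 1.71, edgeR adjusted p = 0.716). Plvap had one of 0.97 (SE 0.87, 95% interval -0.95 to 2.89, edgeR adjusted p = 0.754). None of these differences passed the threshold, and their intervals reach past a doubling. For Npr3 the value was 0.11 (SE 0.34, 95% interval -0.64 to 0.85, edgeR adjusted p = 0.928).

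Of the glomerular genes, Nostrin had a log2 fold change of 0.22 (SE 0.20, 95% interval -0.24 to 0.67, edgeR adjusted p = 0.759). Gata5 stood at 0.00 (SE 0.36, 95% interval -0.80 to 0.80, edgeR adjusted p = 0.999). Tbx3 stood at -0.11 (SE 0.28, 95% interval -0.73 to 0.51, edgeR adjusted p = 0.904). The intervals of these transcription factors do not reach a doubling or a halving in endothelium. They rest on the spread between these samples, which may be technical, so they exclude neither between animals. The near-zero values of Gata5 and Tbx3 turned slightly positive with scaling by library size only (0.31 and 0.20), where the median of all genes was itself 0.33.

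**Figure D4:**
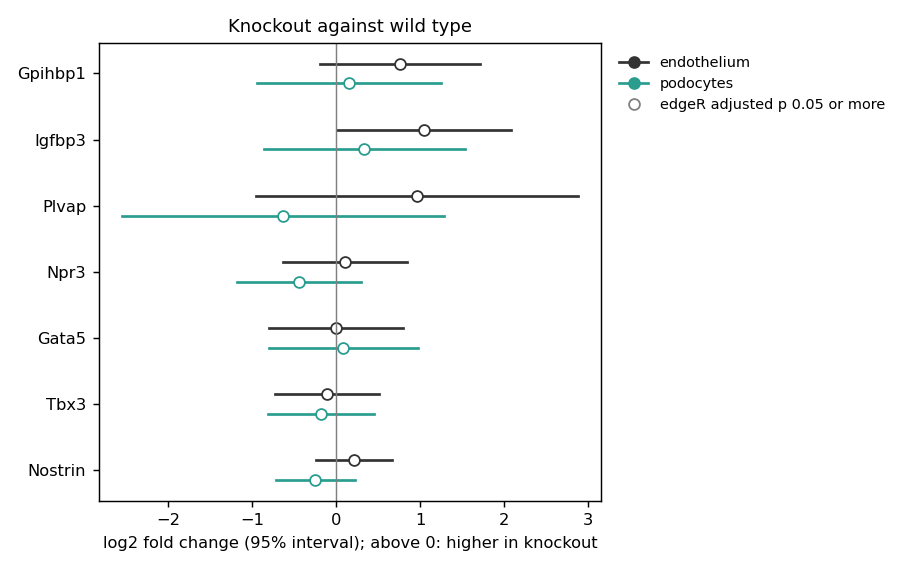
Log2 fold change of knockout against wild type with its 95% interval for each gene, in endothelium and in podocytes; open points have an edgeR adjusted p of 0.05 or more. All 14 points are open, and the interval of Igfbp3 in endothelium begins at 0.01.

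In 3 of the 7 genes (Igfbp3, Gpihbp1 and Nostrin) both knockout endothelium libraries lay above both wild-type libraries, and in none did both lie below, where such a split upward was seen in 24.8% and downward in 19.7% of all genes. Divided by the summed level of the pan-endothelial genes in the same library, Gpihbp1 was at 16.7 and 17.8 per 1000 CPM of that sum in wild type and at 29.5 and 23.1 in knockout. Igfbp3 was at 2.04 and 2.36 against 5.07 and 2.97. These 2 kept both knockout libraries above wild type, and Nostrin overlapped (14.5 and 20.3 against 16.7 and 19.9). Gata5 was at 24.8 and 22.4 in wild type and at 21.55 and 21.54 in knockout, and Tbx3 at 41.7 and 36.8 against 34.1 and 32.0. On this scale, then, 2 of the 7 genes split upward and 2 downward, where 20.9% of all genes split upward and 24.1% downward. The pan-endothelial sum that divides these levels was itself 9519 and 7918 CPM in knockout against 8519 and 7341 CPM in wild type.

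The 2 knockout endothelium libraries differed from each other in Plvap more than in nearly all other genes. Plvap was 15.6-fold higher in replicate 2 than in replicate 3, a gap of 3.96 on the log2 scale and the second largest of 10080 genes with a mean of at least 5 CPM, whose median gap was 0.27. Only Efhd2 had a larger one (16.4 against 0.688 CPM), and the third was that of Sox17, an arterial transcription factor (448 against 37.0 CPM). Efhd2 was singled out after its values were seen. Over all 10080 genes the wild-type endothelium pair stood farther apart, with a median gap of 0.32, and Plvap had a gap of 0.78 there. Leaving out knockout replicate 2 turned the Plvap difference between genotypes to -2.09, and leaving out replicate 3 gave 1.87. Gtpbp3, which overlaps Plvap, did not share the gap, with 16.1 and 12.7 CPM in the 2 knockout endothelium libraries and 15.3 and 14.0 CPM in wild type.

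Against the mean of the wild-type endothelium libraries, on the log2 scale, Plvap stood at 1.93 in knockout replicate 2 and at -2.03 in replicate 3. Igfbp3 stood at 1.47 and 0.43, Gpihbp1 at 1.04 and 0.42, and Npr3 at 0.08 and 0.29. The 3 glomerular genes lay between -0.29 and 0.23 in both, with Gata5 at 0.14 and -0.13, Tbx3 at 0.07 and -0.29, and Nostrin at 0.23 and 0.22. The 4 non-glomerular genes had a median of 1.25 with 4 of 4 above 0 in replicate 2 and of 0.35 with 3 of 4 above 0 in replicate 3. Other genes that mark peritubular, medullary or postcapillary endothelium had a median of 0.69 in replicate 2 and 0.20 in replicate 3, each with 8 of 10 above 0. Arteriole genes had a median of 0.61 with 8 of 8 above 0 in replicate 2 and of -0.19 with 2 of 8 above 0 in replicate 3. The 10 other glomerular genes, Emcn among them, had medians of -0.22 and -0.05, with 3 and 4 above 0, and the medians of all genes were 0.09 and -0.02.

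Markers of other cells also moved between these libraries. The summed level of 4 tubule genes outside the proximal segment was 2627 CPM in knockout endothelium replicate 2 and 6277 CPM in replicate 3, against 6572 and 14792 CPM in wild type. The 6 lymphatic genes summed to 138 and 116 CPM in knockout against 90.3 and 62.9 CPM in wild type, with a median log2 fold change of 1.47, 5 of 6 positive, 2 at an unadjusted edgeR p under 0.05 (5.49% of all genes) and none called. Most of that sum was Flt4, a receptor of lymphatic growth factors named here after its values were seen, at 91.1 and 65.3 CPM in knockout against 58.7 and 43.4 CPM in wild type. Lyve1 was at 4.02 and 5.85 against 1.29 and 0.217 CPM, and Prox1, the lymphatic transcription factor, at 5.29 and 10.7 against 7.90 and 8.69 CPM. The 7 mesangial and mural genes summed to 469.8 and 252 against 573 and 326 CPM, with a median log2 fold change of 0.73, 5 of 7 positive, 2 at an unadjusted edgeR p under 0.05 and none called. The podocyte genes summed to 2054 and 1893 against 3122 and 1687 CPM. In both genotypes of endothelium, replicate 2 had the lower tubule sum and the higher Plvap level. The part of the cell mixture in the levels of Plvap, Igfbp3 and Gpihbp1 was not tested.

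**Figure D5:**
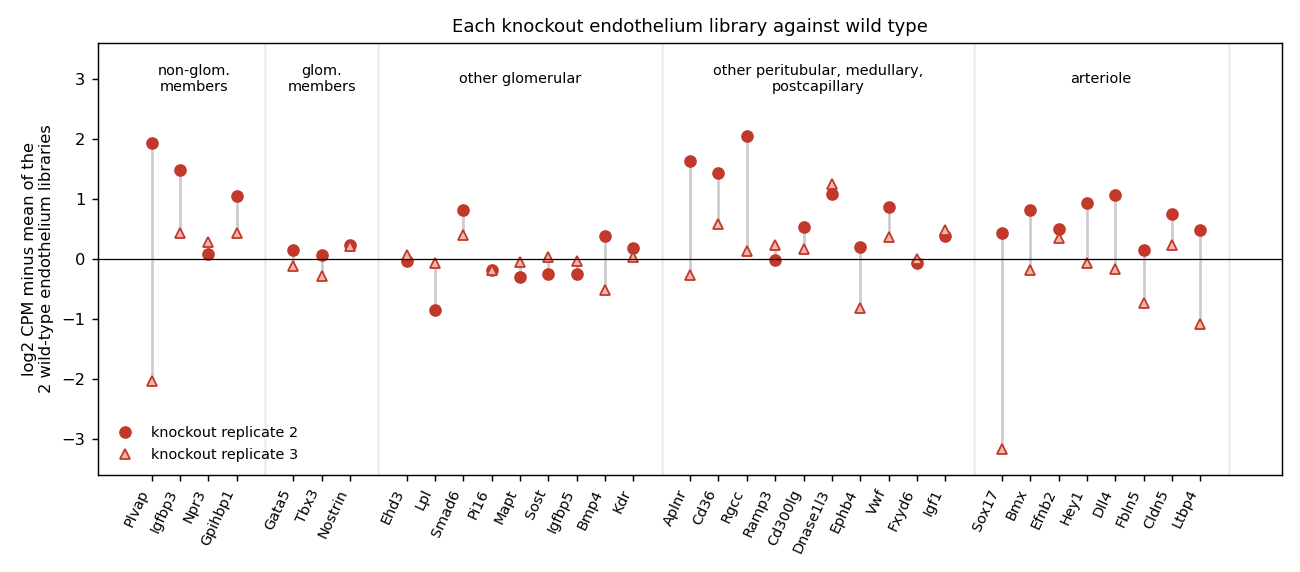
Log2 level of each gene in knockout endothelium replicates 2 and 3 minus the mean of the 2 wild-type endothelium libraries, for the 7 genes and for the other capillary and arteriole genes except Emcn. Replicate 2 lies above 0 for all 7 genes, but the median of all genes there was 0.087, above Tbx3 (0.069) and Npr3 (0.083). The replicates lie farthest apart for Plvap (1.93 and -2.03) and Sox17 (0.42 and -3.17).

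In podocytes none of the 7 genes was called between knockout and wild type by edgeR, where 1 gene in all, Emcn, was called (0.00607%). None had an unadjusted p under 0.05 either, against 4.43% of all genes. DESeq2 called none of the 7 and 8 genes in all (0.0486%), and limma voom called no gene at all (0%). Npr3, the one with a high podocyte level, had a log2 fold change of -0.45 (SE 0.33, 95% interval -1.18 to 0.29, edgeR adjusted p = 0.978), and its knockout libraries lay on both sides of the lower wild-type library. The podocyte marker genes had a median of -0.64 with 8 of 8 negative and none called, and summed to 10458 and 11504 CPM in knockout against 21201 and 14072 CPM in wild type. The 6 proximal tubule genes had a median of 0.84 with 6 of 6 positive and none called, and summed to 2293 and 809 against 512 and 989.6 CPM. Their part in the Npr3 value was not tested. Plvap had one of -0.64 (SE 0.87, 95% interval -2.56 to 1.29, edgeR adjusted p = 0.982). Nostrin was the only gene whose podocyte libraries did not overlap by genotype, lower in knockout at -0.25 (SE 0.21, 95% interval -0.72 to 0.22, edgeR adjusted p = 0.978), where 16% of all genes split that way and 15.1% the other way. Values for the other 4 lay between -0.18 (Tbx3) and 0.34 (Igfbp3).

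The difference between the 2 genotype effects was tested directly. No gene of 16477 was called (0%) by edgeR, and none by DESeq2 or limma voom, with 428 genes (2.6%) and none of the 7 at an unadjusted edgeR p under 0.05. The value was 1.60 for Plvap (SE 1.23, 95% interval -1.11 to 4.32), 0.71 for Igfbp3, 0.61 for Gpihbp1, 0.55 for Npr3, 0.47 for Nostrin, 0.06 for Tbx3 and -0.09 for Gata5, each with an edgeR adjusted p of 1. This test, the genotype contrasts and the contrasts between cell types use the same libraries, so their values are not independent of each other.

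Other genes known from the same capillary beds were taken from lists. Of 10 other glomerular endothelial genes tested, 6 were higher in wild-type endothelium than in wild-type podocytes and 4 were not called, where 4.26% of all genes were called higher and 4.73% lower. Ehd3, an endocytic ATPase of glomerular endothelium, was at 3224 and 2815 CPM in wild-type and at 2918 and 3146 CPM in knockout endothelium, and Kdr, the main VEGF receptor, at 1673 and 1295 against 1666 and 1498 CPM. Lpl, the lipase that Gpihbp1 anchors, was not called, with 459.6 and 519.7 CPM in the endothelium of wild type and 752 and 650.4 CPM in its podocytes. Emcn was the only one of the 10 called between genotypes, lower in both cell types. At an unadjusted edgeR p under 0.05 there was 1 in endothelium (5.49% of all genes) and 3 in podocytes (4.43%), Emcn included. The medians were -0.16 in endothelium, with 6 of 10 negative, and -0.31 in podocytes, with 7 of 10 negative.

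Of 10 peritubular, medullary or postcapillary genes tested, 6 were higher in wild-type endothelium and 4 were not called (4.26% of all genes were called higher), and in knockout 7 were higher (4.28%). None was called between genotypes by edgeR, with a median of 0.53 in endothelium and, there, 1 gene at an unadjusted p under 0.05 (5.49% of all genes), the fatty acid transporter gene Cd36. Cd36 was at 102 and 75.3 CPM in wild-type endothelium and at 237 and 132 CPM in knockout endothelium, a difference of 1.05 on the log2 scale (SE 0.34, edgeR adjusted p = 0.716). Cd300lg, a capillary surface receptor, was at 397.9 and 319 CPM in wild type and 512 and 397 CPM in knockout endothelium. Ramp3, which modifies the receptors of adrenomedullin, was at 60.9 and 75.8 CPM against 67.1 and 79.9 CPM, and overlapped. Ephb4, a receptor of venous endothelium, was at 220.1 and 159 CPM against 214 and 105 CPM, with a lower mean in knockout (log2 fold change -0.25, edgeR adjusted p = 0.811). Fxyd6, a regulator of the sodium pump, was at 62.2 and 39.5 CPM against 47.0 and 49.6 CPM. Rgcc, a cell cycle regulator, was at 7.22 and 13.5 CPM against 41.2 and 10.8 CPM. As with Plvap, the Rgcc value of knockout replicate 2 stood above the other 3 libraries.

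Of 8 arteriole genes tested, 6 were higher in wild-type endothelium, 1 lower (Cldn5) and 1 not called, against 4.26% and 4.73% of all genes, and none was called between genotypes by edgeR or had an unadjusted p under 0.05. Fbln5, an elastic fibre protein, was at 761 and 650 CPM in wild-type and at 781 and 424 CPM in knockout endothelium. Dll4, a Notch ligand, was at 87.8 and 66.7 CPM against 159 and 67.8 CPM. Ltbp4, a matrix protein that binds latent TGF-beta, was at 408 and 260.0 CPM against 453 and 153 CPM, and Efnb2, the arterial ephrin, at 99.8 and 102 against 141 and 128 CPM. All 4 were higher in knockout replicate 2 than in replicate 3, and Fbln5, Dll4 and Ltbp4 were so in wild type as well.

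The partners of the single genes were read in the same way, and each count stands against the 4.26% of all genes called higher and the 4.73% called lower. Around Gpihbp1, 1 of 9 lipoprotein genes tested was higher in wild-type endothelium (Cd36, 3.04, edgeR adjusted p = 0.000462) and the other 8, among them Lpl and Apoe, were not called. Around Npr3, 1 of 5 natriuretic peptide genes tested differed: Npr1, the signalling receptor, was lower in wild-type endothelium (-1.75, edgeR adjusted p = 0.00127), with 74.1 ± 11.9 CPM (SD, n = 2) against 249 ± 50.3 CPM in podocytes. Npr1 and Npr3 were thus both lower in endothelium than in podocytes, while Npr2, a further natriuretic peptide receptor, was not called. The peptide genes Nppa and Nppc were near the floor, at means of 1.83 CPM or less in every group.

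Around Igfbp3, 2 of 11 insulin-like growth factor genes were higher in wild-type endothelium, 3 lower and 6 not called. Igfbp5 was higher (2.71, edgeR adjusted p = 0.0014), with 933 ± 55.4 CPM (SD, n = 2), and Igfbp7 was lower (-3.08, edgeR adjusted p = 0.0377), with podocyte replicates at 3495 and 888 CPM. Around Plvap, 8 of 14 genes of caveolae, fenestrae and VEGF signalling were higher, 2 lower and 4 not called. Nrp1, a VEGF co-receptor, was higher by 1.90 (edgeR adjusted p = 0.00176) and Cavin2, a caveolar coat protein, by 3.05 (edgeR adjusted p = 0.000168).

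Around Nostrin only 3 of the 10 listed genes had all 8 counts and could be tested. Nosip, another protein that interacts with the nitric oxide synthase, was higher in wild-type endothelium by 0.76 (edgeR adjusted p = 0.0492) and not called in knockout (0.73, edgeR adjusted p = 0.0534), Wasl was lower (-1.19, edgeR adjusted p = 0.00673), and Dnm2 was not called. Among the other GATA factors, 1 of 5 was higher, Gata2 (1.91, edgeR adjusted p = 0.0189), at 48.0 ± 3.09 (SD, n = 2) CPM per kb in wild-type endothelium, against 57.4 ± 10.04 for Gata5. With the union of annotated exons as the length, Gata2 fell to 31.7 and Gata5 stayed at 57.4. Gata1, Gata4 and Gata6 had means of 3.24 CPM or less in wild-type endothelium. None of 12 other T-box genes was called, and the highest of them per kilobase, Mga, had 5.30 CPM per kb in wild-type endothelium, against 62.7 ± 12.1 (SD, n = 2) for Tbx3. None of the partner genes on these lists was called between genotypes by edgeR. At an unadjusted p under 0.05 there were 3 of the lipoprotein genes and 2 of the caveolae and fenestrae genes in endothelium, and 2 and 3 of them in podocytes, where 1 natriuretic, 1 nitric oxide and 1 T-box gene also had such a p, against 5.49% of all genes in endothelium and 4.43% in podocytes. Cd36 is on both the lipoprotein and the peritubular list.

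The genes most alike in pattern were found by Pearson's r of log2 CPM over the 8 libraries among 10079 genes with a mean of at least 5 CPM. These values describe libraries that share a split into endothelium and podocytes, so that genes which differ between the cell types are alike by this measure. Gpihbp1 was most like Cd300lg, Ecscr and Hrct1, Gata5 like Fas, Snrk and Hlx, Tbx3 like Slfn5 and Tmem204, and Nostrin like Ldb2, Grap and Ripply3, each with an r of at least 0.995. Igfbp3 was most like Cavin3, Efnb2 and Kctd12b (0.99 each), and Npr3 like Ggt5, Plagl1 and Cmtm7, of which Ggt5 had the highest r (0.9995). The nearest to Plvap were C030034I22Rik, Tpgs2 and Tcf3 (0.98, 0.97 and 0.97), none of which is on the lists of endothelial genes used here. Within the set, Gata5 and Tbx3 had an r of 0.99, Plvap had 0.61 to 0.69 with the other endothelium-high genes, and Npr3 had a negative r with all 6.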

How the data were processed

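RNA of the 8 libraries was polyadenylated and the libraries were TruSeq, per the labels' protocols. The authors deposited raw counts by Entrez gene in 1 table, a column for each library. In 3 columns incomplete lines left cells that are not numbers, so these are recorded as another kind of value, although every count on the complete lines was a whole number. Of 22533 gene lines, 5207 (23.11%) held fewer than 8 counts and were not analysed here. The submitters' processing notes name mm10 and DESeq2, and the aligner, the counting tool, the annotation and the use of strand are not given in the sources used here.

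The deposited counts went into edgeR (version 4.0.16, under R 4.3.3). The filterByExpr function selected genes by the 4 groups, and TMM factors scaled the libraries. A model of 4 group means over all 8 libraries gave each contrast by quasi-likelihood F tests. Benjamini-Hochberg adjustment ran over 16477 genes, and an adjusted p under 0.05 is a call. The standard error is the log2 fold change divided by the root of F. The script was tested on simulated data. CPM per kb used the longest transcript of GENCODE M21, and log2 CPM a prior count of 2.

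The 7 genes and all lists were chosen with earlier results of these data known. Listed genes were named, at most 6 a list, if called between genotypes and otherwise by the highest level per length in wild-type endothelium. For likeness the 3 nearest genes were named. Some genes that met these rules are not reported here. Alternatives were DESeq2 1.42.0, limma voom (limma 3.58.1), other scalings, filters, thresholds and lengths, the replicate number as a block, fits of only the libraries compared and each library left out in turn. Total counts ranged from 10478956 to 17386042, and 3 counts equal 0.186 to 0.258 CPM.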

Additional observations from a re-analysis of the deposited data

How the results depend on the processing

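With 2 libraries a group, the intervals of the genotype differences are wide, and the sources do not give the animals behind the libraries. In every alternative run, none of the 7 genes was called between genotypes in either cell type or in the difference of the genotype effects. This says nothing about stability, since several of these fits called no gene of the table, not even Emcn. In endothelium these were library size only, a mean of at least 5 CPM and each fit without an endothelium library. In podocytes they included limma voom and library size only, and for the difference of the effects they were all fits. Between cell types 6 of the 7 were called in each genotype in all alternatives except the 4 that follow, where Plvap was added. With only the 4 wild-type libraries fitted, 7 were called (Plvap 1.44, edgeR adjusted p = 0.00355). In knockout 7 were called with the replicate block (Plvap 2.49, edgeR adjusted p = 0.033), without knockout endothelium replicate 3 (Plvap 3.85) and at an adjusted p under 0.10. Of the single-gene values under the alternatives, 554 kept direction and call, 4 Plvap values passed the threshold and 37 changed sign, none of them called.

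Changes of sign between genotypes in endothelium were these, and their cause was not tested. With limma voom Plvap was at -0.042 and Gata5 at 0.0049. With library size only Gata5 was at 0.31 and Tbx3 at 0.20, with the median of all genes at 0.33. With a mean of at least 5 CPM Gata5 was at 0.15 and Tbx3 at 0.043. With the replicate number as a block (replicate block) the fit gave Gata5 0.0081 and Plvap 0.39 (0.97 without it), and only the 4 libraries compared gave Gata5 0.028. In the difference of the genotype effects, library size only gave Gata5 0.10 and a mean of at least 5 CPM gave 0.0014.

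Leaving out each library in turn gave ranges for the values that changed sign. In endothelium the genotype difference ran from -2.09 to 1.87 for Plvap, -0.31 to 0.67 for Npr3, -0.18 to 0.18 for Gata5 and -0.31 to 0.088 for Tbx3. In podocytes it ran from -0.29 to 1.14 for Igfbp3, -0.47 to 1.22 for Gpihbp1, -0.49 to 0.80 for Gata5 and -0.60 to 0.15 for Tbx3. The difference of the effects ran from -1.45 to 2.51 for Plvap, -0.076 to 1.33 for Igfbp3, -0.44 to 1.23 for Gpihbp1, -0.78 to 0.48 for Gata5 and -0.27 to 0.48 for Tbx3. In knockout, endothelium against podocytes ran from -0.11 to 3.85 for Plvap. An arm left with 1 library was assumed to vary like the other groups.

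Over all genes, DESeq2 called 4 genes between genotypes in endothelium and 8 in podocytes, where edgeR called 1 in each. Leaving out 1 library gave 769 to 1672 genes called between the wild-type cell types (1481 with all) and 960 to 1809 between the knockout ones (1709 with all). The same-numbered libraries had correlated deviations of 0.19 in endothelium, 0.16 in podocytes and 0.11 between the knockout cell types, but -0.13 between the wild-type ones, so the numbers were not taken to pair the libraries. With the replicate block 1831 genes were called in wild type and 2241 in knockout. A block with the podocyte numbers swapped, chosen after seeing the data, gave 1357 genes in wild type, with 6 of the 7 called.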
